A study of Mus musculus with 8 samples.

Results

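Histone H3 trimethylated at lysine 4 (H3K4me3), the chromatin mark of active and poised gene starts, was measured by ChIP-Seq at 32 genes of the Sox, T-box and Gata families of transcription factors. The members were a given list of 16 Sox, 12 T-box and 4 Gata genes, and family genes that belong to lineage groups such as pluripotency or endoderm were not on it. All 32 were found among the 26225 annotated mouse genes, and each was counted at 1 annotated start, the one with the most H3K4me3 over the 4 H3K4me3 libraries. The members were chosen by family and not by their tags.

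Wild-type (wt) mouse embryonic stem cells (mESCs) were the line TC-1, and menin-null mESCs, in which Men1 is knocked out, were the line 3.2N. Each line was also differentiated in culture, and the product carries the name pancreatic islet-like endocrine cells (PILECs). All carried the genetic background 129S6/SvEvTac, and the mESCs were kept with leukemia inhibitory factor and freed of their feeder layer before use. Each genotype was thus 1 line, and each line and stage had 1 H3K4me3 library beside 1 of input chromatin, so nothing was replicated. A difference is therefore given with a 95% interval that covers counting error only, and it compares 2 libraries, not 2 conditions.

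Sox proteins bind DNA through an HMG box, T-box proteins through the domain that gave the family its name, and Gata proteins through zinc fingers that read a GATA core. The 3 families act as switches of cell fate: Sox9 in cartilage, testis and pancreatic progenitors, Sox10 in neural crest, Sox11 and Sox4 in young neurons and many progenitors, Eomes in the early endoderm and trophoblast, Tbx5 in heart and forelimb, Gata1 in red blood cells. Menin, the product of Men1, is a subunit of the MLL1 and MLL2 complexes that place H3K4me3, and starts of such developmental genes often carry the mark in mESCs before the gene is used. The comparisons ask how the mark at these starts differs with the loss of menin and with differentiation.

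The H3K4me3 libraries held 2432377 and 3517028 tags (mapped reads) for wt and menin-null mESCs and 18773635 and 17682677 for the PILECs, so the mESC counts are the less certain ones. Levels are tags within 1 kb of the start, per 1000000 tags of the library (RPM). Over exons 3 to 8 of Men1 the input held 17 and 22 tags in wt mESCs and wt PILECs and 0 in both menin-null libraries. The labelled cell types were checked against marker genes: all 7 pluripotency genes fell at least 2-fold in PILECs of both genotypes, with median log2 ratios of -4.14 and -4.40. The islet hormone genes Ins1, Ins2, Gcg and Iapp were not marked in the PILECs, with 0.213 to 1.24 RPM there and 0.421 to 1.21 RPM in the inputs. Of the 11 islet genes 5, Neurod1 among them, reached 4 RPM in each PILEC library, and 6 and 5 did in wt and menin-null mESCs. All 6 neural genes found reached 4 RPM in every H3K4me3 library, and of 8 fibroblast genes 8 did in each PILEC and 6 in each mESC library. The input itself was richer near starts in mESCs, where 7.57% and 7.05% of its tags lay within 1 kb of a start against 4.73% and 4.90% in PILECs, and this bears on every comparison of stages below.

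The bases before a start show the range of sequence in the set. They are given 5′ to 3′ for 250 bases up to the start in the mouse build mm9, with each CG dinucleotide (CpG) in capitals. Sox12 had the highest level in mESCs, Sox30 was called lower in menin-null PILECs, and Gata1 was the lowest member in wt PILECs.
Sox12, mm9 chr2:152223783-152224032, minus strand: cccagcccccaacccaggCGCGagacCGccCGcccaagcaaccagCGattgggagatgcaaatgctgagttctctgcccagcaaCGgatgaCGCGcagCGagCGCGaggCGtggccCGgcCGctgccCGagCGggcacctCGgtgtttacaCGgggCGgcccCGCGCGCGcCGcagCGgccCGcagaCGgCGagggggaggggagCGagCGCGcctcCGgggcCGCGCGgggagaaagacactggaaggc
Sox30, mm9 chr11:45793562-45793811, plus strand: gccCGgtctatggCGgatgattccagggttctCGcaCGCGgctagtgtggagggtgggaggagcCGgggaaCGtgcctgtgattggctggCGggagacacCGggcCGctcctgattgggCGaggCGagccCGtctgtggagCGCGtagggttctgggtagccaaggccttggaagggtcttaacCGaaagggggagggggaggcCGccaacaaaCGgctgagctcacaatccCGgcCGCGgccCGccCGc
Gata1, mm9 chrX:7545037-7545286, minus strand: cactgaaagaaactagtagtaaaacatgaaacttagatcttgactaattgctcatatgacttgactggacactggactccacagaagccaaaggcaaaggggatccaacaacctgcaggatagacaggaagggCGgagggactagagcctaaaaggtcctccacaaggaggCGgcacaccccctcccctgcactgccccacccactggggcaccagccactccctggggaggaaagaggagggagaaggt

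These stretches held 35 CpGs before Sox12, 23 before Sox30 and 2 before Gata1, and none of them overlapped an annotated exon. CpG content relative to its base composition, written as observed over expected, was 1.01 for Sox12, 0.83 for Sox30 and 0.11 for Gata1. Over all 32 members it had a median of 0.69 and ran from 0.00 at Tbx5 to 1.05 at Tbx1, against a median of 0.53 over all genes. The 4 members without the mark in any library (Tbx5, Tbx10, Tbx19 and Gata1) lay between 0.00 and 0.50, and the 17 marked in all 4 libraries lay between 0.41 and 1.01. Across the 32 members Spearman's rho between CpG content and RPM was 0.32 and 0.50 in wt and menin-null mESCs and 0.44 and 0.38 in the PILECs, and over all 26225 genes it was 0.76 to 0.79. These points share a library and a base composition, so the coefficients are descriptions.

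Letters that the families' own proteins bind were rare in these windows, searched on both strands. The Sox motif AACAAT stood before 2 of the 32 members (6.2%, against 8.4% of all genes), and ACAATG, which overlaps it, before 1 (3.1% against 9.0%). The T-box motif GGTGTGA stood before 1 member (3.1% against 3.2%) and the Gata motif AGATAA before 1 (3.1% against 8.6%). A match is only a description of the letters.

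Most members were marked in mESCs, and fewer in PILECs. With a start called marked at 4 RPM or more, 27 of the 32 members (84.4%) were marked in wt mESCs, where 57.2% of all genes were, and 26 (81.2%) in menin-null mESCs, where 56.4% were. In wt PILECs 20 members (62.5%) were marked against 52.9% of all genes, and in menin-null PILECs 21 (65.6%) against 52.2%. Of 43 Forkhead genes 86.0% were marked in wt mESCs and 74.4% in wt PILECs, and of 39 Hox genes 53.8% and 61.5%. In the inputs 1, 2, 0 and 0 members reached that level, in the same order of cells. Of the families, all 16 Sox genes, 8 of 12 T-box genes and 3 of 4 Gata genes were marked in wt mESCs, and 12, 6 and 2 in wt PILECs.

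**Figure D1:**
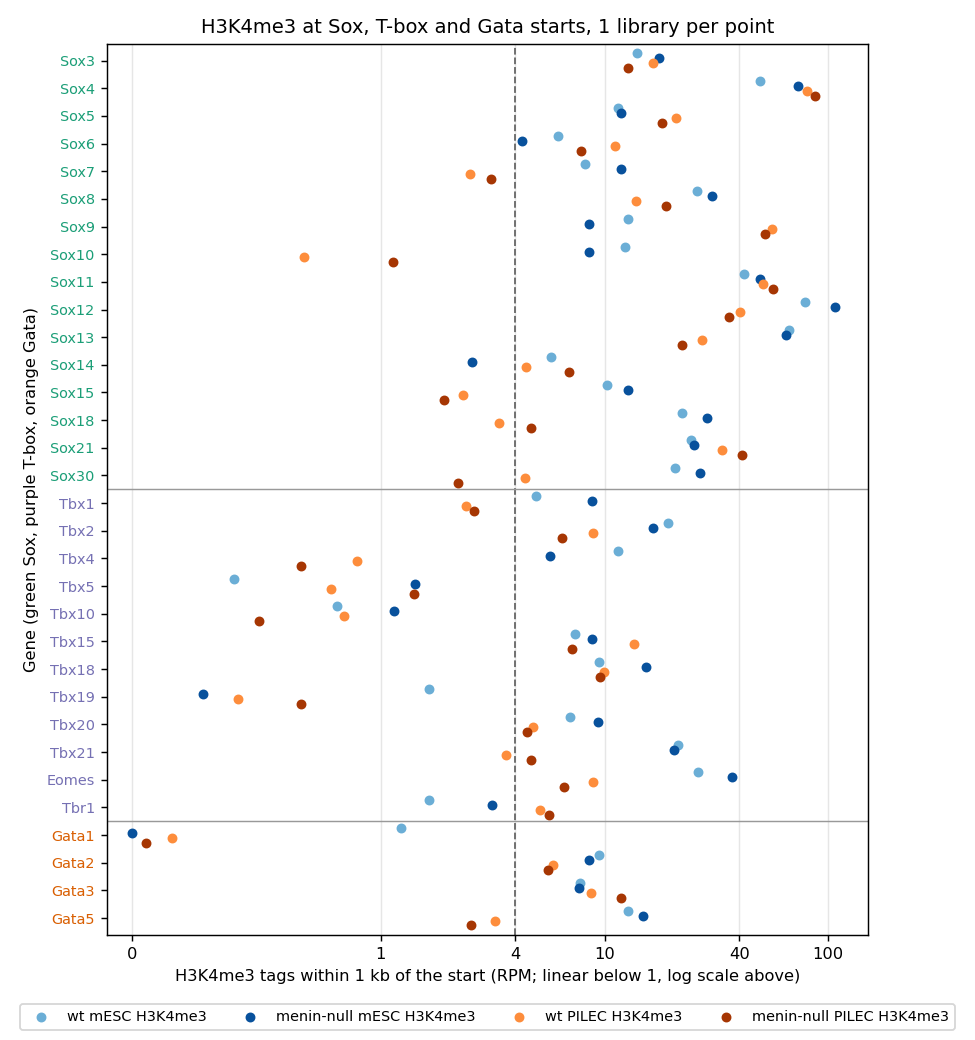
H3K4me3 tags within 1 kb of the start (RPM, linear below 1 and log above) for each of the 32 members, with 1 point for each of the 4 libraries and a dashed line at 4 RPM. The PILEC points of Sox10 and Tbx4 lie far to the left of their mESC points, those of Sox9 far to the right, and all points of Tbx5, Tbx10, Tbx19 and Gata1 lie left of the line.

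The same 17 members (53.1%, against 50.4% of all genes) were marked in all 4 libraries: Sox3, Sox4, Sox5, Sox6, Sox8, Sox9, Sox11, Sox12, Sox13, Sox21, Tbx2, Tbx15, Tbx18, Tbx20, Eomes, Gata2 and Gata3. Another 6 (Sox7, Sox10, Sox15, Tbx1, Tbx4 and Gata5) were marked in the mESCs of both genotypes and in neither PILEC library (18.8%, against 4.23%), and 4 in no library (12.5%, against 40.9%). Tbr1, a cortical neuron factor, was the member marked only in PILECs, at 5.17 and 5.66 RPM in wt and menin-null PILECs against 1.64 and 3.13 RPM in the mESCs. Sox18 and Tbx21 reached 4 RPM in all but the wt PILECs, Sox14 in all but the menin-null mESCs, and Sox30 in all but the menin-null PILECs. In the library that missed the line Sox18 had 3.36 RPM, Tbx21 3.62, Sox14 2.56 and Sox30 2.21, while the inputs of those libraries held 0.841 to 2.40 RPM at these starts.

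The order of the levels was led by Sox genes. In wt PILECs the highest 4 were Sox4 at 80.3 RPM, Sox9 at 56.0, Sox11 at 51.2 and Sox12 at 40.5. The counting intervals of Sox9 (52.7 to 59.5) and Sox11 (48.0 to 54.5) overlapped, and those of Sox4 (76.3 to 84.4) and Sox12 (37.7 to 43.5) stood apart from both. In wt mESCs the leaders were Sox12 at 78.9 RPM (68.2 to 90.9) and Sox13 at 67.0 RPM (57.1 to 78.1), whose intervals overlapped. The lowest 4 members in wt PILECs were Tbx5 at 0.799 RPM, Sox10 at 0.692, Tbx19 at 0.426 and Gata1 at 0.160, where the input of the same cells gave 1.58, 0.578, 1.10 and 0.368 RPM. Sox10 was thus near its input level, and the other 3 were below theirs. Among T-box genes Tbx15 was highest in wt PILECs at 13.5 RPM, and among Gata genes Gata3 at 8.74 RPM. The 2 members on chromosome X were Sox3 and Gata1.

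Loss of menin came with few differences at these starts in mESCs. A member was called lower or higher where its RPM differed at least 2-fold and the interval of the log2 ratio lay off 0, and it was compared where both libraries together held at least 10 tags. Of the 28 members compared, 1 was called lower in menin-null mESCs and 0 higher, where 0.902% of all 16178 genes compared were called lower and 0.828% higher. The lower one was Tbx4, a hindlimb and lung bud factor, with 28 tags (11.5 RPM) in wt and 20 tags (5.69 RPM) in menin-null mESCs and a log2 ratio of -1.02 (-1.92 to -0.14). Its upper limit lay near 0, and the input over 50 kb to each side of this start was also lower for its depth in menin-null mESCs, at -0.31 (-0.56 to -0.06), whose part in the ratio was not tested. The call was lost with duplicate tags counted once (-0.91) and after division by the input (-0.40), which here and below means the ratio of input tags within 5 kb of the start with 1 tag added to each. Sox4, Sox12 and Eomes had intervals above 0 without reaching 2-fold, at log2 ratios of 0.57 (0.25 to 0.89), 0.44 (0.19 to 0.70) and 0.49 (0.05 to 0.95). These 3 are 10.7% of the members compared, and 24.3% of all genes had an interval above 0. Below 0 lay the interval of Tbx4 alone (3.57%, against 2.07% of all genes). The median log2 ratio was 0.23 for the members and 0.22 for all genes. Scaling by the tags near starts instead of all tags moved the median of all genes to -0.02 and their calls to 2.13% lower and 0.241% higher. Under it 2 members were called lower, Tbx4 and Sox14, a factor of spinal interneurons that had 14 and 9 tags.

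In PILECs 1 of the 31 members compared was called lower in menin-null cells and 0 higher. Of all 24040 genes compared, 1.39% were called lower and 1.31% higher. Sox30, a gene of the male germ line, had 83 tags (4.42 RPM) in wt and 39 tags (2.21 RPM) in menin-null PILECs, a log2 ratio of -1.0 (-1.59 to -0.44). Both are low levels beside 20.6 and 26.7 RPM in wt and menin-null mESCs, and the input at Sox30 held 1.10 and 1.32 RPM in the 2 PILEC libraries. The median log2 ratio was -0.07 for the members and -0.07 for all genes. The call of Sox30 lay at the 2-fold line and was lost with duplicate tags counted once (-0.89), with scaling by tags near starts (-0.91), which moved all genes to 0.973% lower and 1.72% higher, with division by the input (-0.81), with tags of at most 2 mismatches (-0.96) and with all libraries thinned to the shallowest (-0.87).

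Below 2-fold, more members had intervals off 0 in PILECs than in mESCs. The intervals of 8 members lay below 0 (25.8%, against 20.1% of all genes) and those of 6 above it (19.4%, against 5.08%). With all libraries thinned at random to the shallowest, 5 of 25 members lay below 0 and 4 above it in PILECs, against 1 and 2 of 28 in mESCs. The share of all genes with such intervals after thinning is not given here, so these counts have no background beside them. Tbx15, a factor of limb, skin and skeletal development, had 253 tags (13.5 RPM) in wt and 127 tags (7.18 RPM) in menin-null PILECs, a log2 ratio of -0.91 (-1.23 to -0.59), and it passed 2-fold with tags within 500 bp (-1.0) and within 2000 bp (-1.11). The others below 0 were Sox6 at -0.50, Tbx2 at -0.46, Eomes at -0.44, Sox3 at -0.36, Sox13 at -0.29 and Sox12 at -0.17, besides Sox30. Sox5 and Sox9 act with Sox6 in cartilage, and their intervals took in 0: that of Sox5 ran from -0.43 to 0.01 and that of Sox9 from -0.23 to 0.03. Above 0 lay Sox14 at 0.64 (0.22 to 1.05), Sox8 and Gata3 both at 0.44, Sox21 at 0.30, Sox11 at 0.14 and Sox4 at 0.12. Sox8 works beside Sox9 and Sox10 in neural crest and testis, Gata3 in T cells and many epithelia, and Sox14 and Sox21 in neurons. Of the 16 Sox genes 5 thus lay above 0 and 5 below it (31.2% each way), and of the 12 T-box genes 0 above and 3 below.

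**Figure D2:**
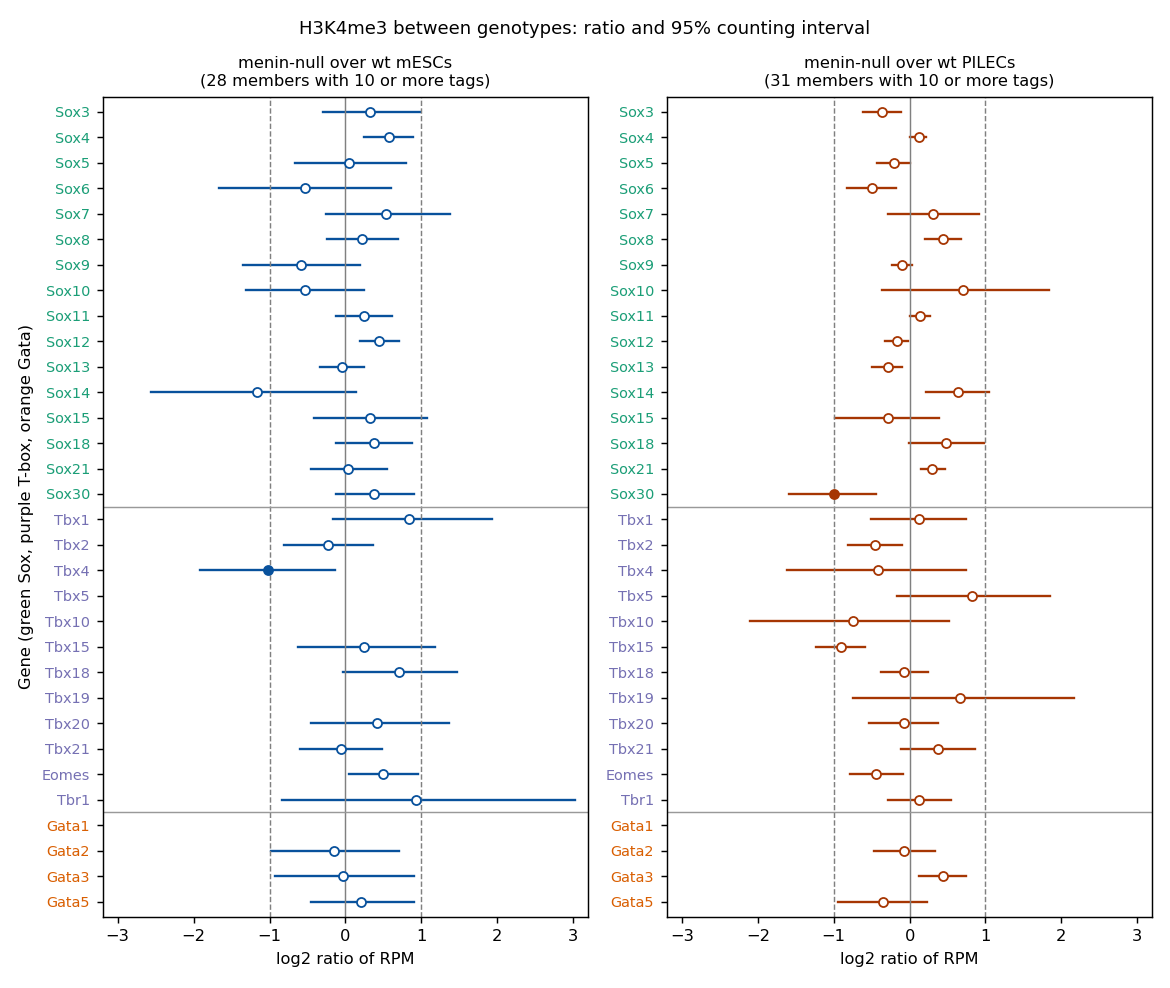
Log2 ratio of RPM, menin-null over wt, for members with at least 10 tags in both libraries together, in mESCs (28) and PILECs (31). Lines are 95% counting intervals, filled points were called (at least 2-fold with the interval off 0) and dashed lines mark 2-fold. Tbx4 is the 1 filled point in mESCs and Sox30 the 1 in PILECs.

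The Hox genes, the developmental factors that pattern the body axis, gave a different picture in the same libraries. Of 39 Hox genes compared in PILECs, 23 were called lower in menin-null cells and 0 higher, with a median log2 ratio of -1.59. Of 43 Forkhead genes 0 were called in either direction, with a median of -0.08. Of the 9 Sox, T-box and Gata genes placed in lineage groups and found here, such as Sox2, Gata4 and Gata6, 0 were called lower and 1 higher in menin-null PILECs, with a median of 0.11. The highest log2 ratio of a member in this comparison was 0.82 (-0.16 to 1.85), at Tbx5, an interval that took in 0, from levels that were not marked in either library.

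More members passed the 2-fold rule between stages than between genotypes. From wt mESCs to wt PILECs 11 of the 31 members compared fell at least 2-fold and 2 rose, where 12.8% of all 21261 genes fell and 5.56% rose. The median log2 ratio was -0.69 for the members and -0.11 for all genes. In menin-null cells 14 of 31 fell and 2 rose, where 18.2% of all 21641 genes fell and 4.10% rose, and the medians were -0.69 and -0.27. Falls were not particular to this set. In wt cells 13 of 42 Forkhead genes fell and 1 rose (median -0.53), and 13 of 39 Hox genes fell and 14 rose (-0.45). Of the 9 family genes of lineage groups 5 fell and 0 rose (-1.10). In menin-null cells 18 of 42 Forkhead genes, 24 of 39 Hox genes and 3 of those 9 fell, and 0 rose in each list. By the interval alone, 13 members lay below 0 in wt cells (41.9%, against 24.6% of all genes) and 7 above it (22.6%, against 18.8%), and 17 (54.8%, against 39.1%) and 7 (22.6%, against 12.2%) in menin-null cells. Fewer cells with the mark and less of the mark per cell cannot be told apart in such libraries. Both stage comparisons set 1 mESC library of lower depth against 1 PILEC library.

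The largest falls in wt cells were those of Sox10, Tbx4 and Sox18, and the first 2 ended at about the input level. Sox10 had 30 tags in wt and 30 in menin-null mESCs (12.3 and 8.53 RPM) and 13 and 20 tags in the PILECs (0.692 and 1.13 RPM), with log2 ratios of -4.15 (-5.22 to -3.17) in wt and -2.91 (-3.81 to -2.05) in menin-null cells. Tbx4 went from 11.5 and 5.69 RPM in the mESCs to 0.906 and 0.679 RPM in the PILECs, by log2 ratios of -3.67 in wt and -3.07 in menin-null cells. Sox18, with Sox7 a factor of blood and lymph vessels, went from 22.2 and 28.7 RPM to 3.36 and 4.69 RPM, and its log2 ratios were -2.73 and -2.61. In each of these 3 genes both mESC libraries lay above both PILEC libraries.

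Sox30 showed the largest fall of any member in menin-null cells, by a log2 ratio of -3.60 (-4.18 to -3.05), and fell by a ratio of -2.22 (-2.74 to -1.68) in wt cells. Tbx21, the T-bet of T helper cells, had 21.4 and 20.5 RPM in the mESCs and 3.62 and 4.69 RPM in the PILECs, with ratios of -2.56 and -2.12. Sox15, a gene of mESCs and muscle precursors, fell from 10.3 and 12.8 RPM to 2.34 and 1.92 RPM. Sox30, Tbx21 and Sox15 were marked in both mESC libraries and held at most 4.69 RPM in the PILECs.

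The other members called lower in both genotypes fell less in wt cells, by log2 ratios from -1.13 to -1.97. Gata5, an endoderm and heart factor, went from 12.7 and 14.8 RPM in the mESCs to 3.25 and 2.54 RPM in the PILECs, by log2 ratios of -1.97 in wt and -2.54 in menin-null cells. Eomes went from 26.3 and 37.0 RPM to 8.90 and 6.56 RPM, with ratios of -1.56 (-1.99 to -1.13) and -2.49 (-2.87 to -2.12), and it kept the mark. Sox7 went from 8.22 and 11.9 RPM to 2.50 and 3.11 RPM. Sox13, a close relative of Sox5 and Sox6, stayed high, at 27.3 and 22.3 RPM after 67.0 and 64.8 RPM, and was still called lower in both genotypes (-1.29 and -1.54). Tbx2, a repressor in heart and limb, was called lower in both as well (-1.13 and -1.35). After division by the input neither Sox13 nor Tbx2 reached 2-fold in either genotype.

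The menin-null cells added 3 falls. Sox12 went from 107 to 35.9 RPM in menin-null cells, a log2 ratio of -1.58 (-1.76 to -1.39), and from 78.9 to 40.5 RPM in wt cells, a ratio of -0.96 (-1.19 to -0.73) that stopped short of 2-fold. The wt ratio of Sox12 passed it, at -1.09 to -1.01, with duplicates counted once, with tags left at their 5′ ends, with tags within 500 bp and with at most 2 mismatches. After division by the input the wt ratio of Sox12 turned above 0. The menin-null ratio of Sox12 missed 2-fold with tags within 2000 bp (-0.98) and after division by the input (-0.57). Within 1 kb of that start the input itself held 4.54 RPM in menin-null mESCs and 0.773 RPM in menin-null PILECs. In wt mESCs and wt PILECs it held 5.41 and 0.736 RPM. Tbx1, a factor of the pharyngeal arches, gave -1.76 (-2.45 to -1.05) in menin-null and -1.04 (-1.98 to 0.01) in wt cells, and division by the input turned the menin-null ratio to 0.10. In wt cells Tbx1 was called lower under 5 alternatives, at -1.81 to -1.06, and its ratio turned above 0 after division by the input. Tbx20, a heart factor, gave -1.05 (-1.65 to -0.42) and -0.54 (-1.30 to 0.30), and its call was lost when scaled by tags near starts (-0.69) and when thinned (-0.82). The intervals of the 2 genotypes overlapped for Tbx1 and Tbx20 and not for Sox12, and the difference between genotypes was measured in counts alone.

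Sox9 was the member that rose in both genotypes. It had 31 and 30 tags (12.7 and 8.53 RPM) in wt and menin-null mESCs and 1052 and 925 tags (56.0 and 52.3 RPM) in the PILECs, with log2 ratios of 2.14 (1.62 to 2.70) and 2.62 (2.09 to 3.19). Tbr1 rose in wt cells, by 1.65 (0.25 to 3.56) from 4 tags in mESCs to 97 tags in PILECs, and gave 0.85 (-0.05 to 1.90) in menin-null cells. At its most upstream start the Tbr1 ratio in wt cells was -0.53. Sox14 rose in menin-null cells, by 1.44 (0.47 to 2.61), from 9 to 123 tags (2.56 to 6.96 RPM), and gave -0.36 (-1.19 to 0.57) in wt cells. The input at Sox14 held 2.40 RPM in menin-null mESCs, so its rise started at about the input level. The rises of Tbr1 and Sox14 both rest on mESC counts below 10 tags.

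The members marked in all 4 libraries and called in neither genotype were 7 Sox, 2 T-box and 2 Gata genes. Sox4 gave log2 ratios of 0.69 in wt and 0.24 in menin-null cells, Sox5 0.86 and 0.59, Sox6 0.85 and 0.88, Sox21 0.46 and 0.72, all with intervals above 0. Sox11 gave 0.29 and 0.19 with intervals that took in 0. Sox8 lay below 0 in both, at -0.90 (-1.30 to -0.48) and -0.68 (-1.0 to -0.35), though both ratios turned above 0 after division by the input. Sox3 gave 0.23 (-0.29 to 0.78) in wt and -0.47 (-0.88 to -0.04) in menin-null cells. Gata3 had 7.81 and 7.68 RPM in the mESCs and 8.74 and 11.8 RPM in the PILECs, with stage ratios of 0.16 (-0.53 to 0.93) in wt and 0.62 (0.04 to 1.26) in menin-null cells. Of the other Gata genes Gata2 lay at -0.69 and -0.61, Gata5 fell and Gata1 was unmarked. Of the T-box genes marked in mESCs Tbx18, a factor of the heart's outer layer and the ureter, stayed closest to its mESC level in wt cells at 0.08 (-0.55 to 0.77), and gave -0.69 (-1.14 to -0.22) in menin-null cells. Tbx15 gave 0.86 (0.18 to 1.64) in wt and -0.30 (-0.87 to 0.32) in menin-null cells.

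**Figure D3:**
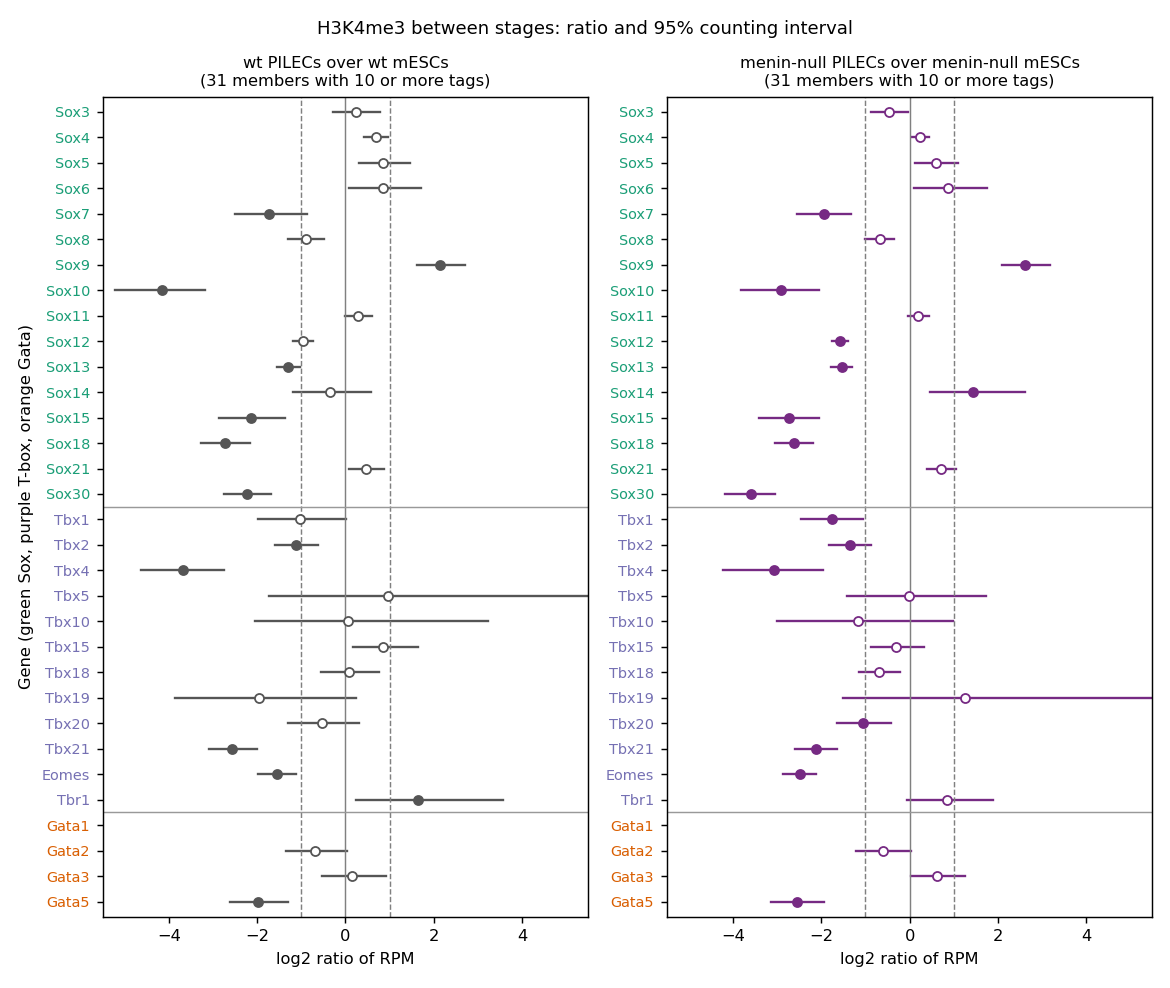
Log2 ratio of RPM, PILECs over mESCs, for the 31 members with at least 10 tags in both libraries together, in wt and in menin-null cells. Lines are 95% counting intervals, cut at the frame for Tbx5 and Tbx19, filled points were called and dashed lines mark 2-fold. Falls outnumber rises, with Sox9 filled on the right in both panels.

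The counts and the medians moved with how background was handled. With input tags of the same window subtracted, a setting chosen after seeing the data, 10 members fell and 3 rose in wt cells and 14 fell and 3 rose in menin-null cells, where 12.4% of all genes fell and 7.03% rose in wt and 18.0% fell and 4.84% rose in menin-null cells. With each ratio divided by that of the input within 5 kb, 9 fell and 7 rose in wt cells and 10 fell and 5 rose in menin-null cells, while all genes changed to 8.09% lower and 18.9% higher and to 10.1% lower and 10.3% higher. The medians of the members then turned to 0.19 and 0.10, and those of all genes to 0.39 and 0.17. Scaling by tags near starts moved the median of all genes in menin-null cells from -0.27 to 0.09 and their calls to 12.3% lower and 7.46% higher, with 12 members lower and 5 higher. Relative to the median of all genes the members lay at -0.58 in wt and -0.42 in menin-null cells, at -0.20 and -0.07 after division by the input and at -0.92 and -0.64 with all libraries thinned to the shallowest.

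A larger share of the tags lay away from these starts than at most marked genes. Of the tags within 5 kb of a marked start, the share that lay 1 to 5 kb away had a median of 36.4% over the marked members in wt and 32.2% in menin-null mESCs, and 49.4% and 50.6% in the PILECs of each. For all marked genes the medians were 13.3%, 11.3%, 13.9% and 13.8%. Forkhead genes had 31.1% to 39.4% and Hox genes 31.1% to 63.5% in the 4 libraries. This share also takes in background tags. Of the marked members, 10 of 27 in wt and 8 of 26 in menin-null mESCs had fewer RPM in these flanks than the input did, and 3 of 20 and 4 of 21 in the PILECs. In all marked genes that share was 55% and 56.5% in the mESCs and 43% and 45.8% in the PILECs. In addition 10 members have the start of another annotated gene within 5 kb.

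Among the 3 families the flank intervals above 0 between stages were mostly those of Sox genes. In the flanks, meaning 1 to 5 kb from the start, Sox11 had 70 and 153 tags in wt and menin-null mESCs (28.8 and 43.5 RPM) and 1949 and 1711 tags in the PILECs (104 and 96.8 RPM). Its flank ratios were 1.85 (1.51 to 2.22) in wt and 1.15 (0.91 to 1.40) in menin-null cells, while its ratio within 1 kb was 0.29 and 0.19. The intervals at the start took in 0, from -0.01 to 0.60 and from -0.04 to 0.43, and after division by the input the start ratios were 0.94 and 0.73.

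Sox4 had flank ratios of 1.80 (1.41 to 2.22) in wt and 1.40 (1.09 to 1.73) in menin-null cells, and smaller ones at its start, at 0.69 (0.42 to 0.97) and 0.24 (0.05 to 0.44). Sox9 had the largest flank ratios of any member, at 2.65 (2.03 to 3.35) and 2.40 (1.87 to 2.98), from 21 and 30 flank tags in the mESCs to 1020 and 795 in the PILECs. Sox12, whose ratio at its start was below 0, gave 0.46 (0.16 to 0.78) in its flanks in wt cells and -0.14 (-0.35 to 0.07) in menin-null cells. In all, 8 of 16 Sox genes had flank intervals above 0 in wt cells (50%), against 1 of 12 T-box genes, 0 of 4 Gata genes and 13.0% of all genes. By the same measure 21 of 39 Hox genes (53.8%), 4 of 6 neural genes (66.7%) and 6 of 43 Forkhead genes (14.0%) had such intervals in wt cells, and of the 9 family genes of lineage groups 1 did. Below 0 in wt cells lay the flank intervals of 7 members (21.9%, against 12.0% of all genes), 2 of them Sox, 3 T-box and 2 Gata genes, and of 6 of those 9 genes. Among the 7 members, Sox10, Sox15, Tbx5, Tbx20 and Gata1 held 0.639 to 4.58 RPM there in wt PILECs. Each of these lay below its input (1.84 to 5.00 RPM). The flanks of Tbx1 went from 19.3 to 6.92 RPM while the input went from 11.5 to 3.94, and those of Gata2 from 21.0 to 8.15 while the input went from 9.18 to 3.52. The part of background in these falls was not tested. In menin-null cells the flank intervals of 7 Sox genes lay above 0 (43.8%, against 14.0% of all genes) and those of 2 below it (12.5%, against 14.7%).

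Most of the Sox flank tags lay downstream. Summed over the 12 marked Sox genes of wt PILECs with at least 10 flank tags, 6271 flank tags lay downstream of the start and 1407 upstream, so 81.7% were downstream, and in menin-null PILECs 82.9% were. For all marked genes with as many flank tags these shares were 56.0% and 55.1%. In wt PILECs 95.7% of the flank tags of Sox4 were downstream, 93.8% of those of Sox9 and 90.6% of those of Sox11, all of which are short genes. Of the 12, Sox6 had 635 tags upstream and 24 downstream, and Sox5 (23 and 22) and Sox30 (26 and 20) also had more upstream. Another annotated gene, 1110006G14Rik, starts within 5 kb of the start of Sox6. The 6 T-box genes measured had 66.6% of their flank tags downstream in wt PILECs, and of the Gata genes Gata2 had 28.8% and Gata3 54.6%. Both Gata genes have another annotated start of their own in these flanks, whose tags are counted there. That of Gata2 lies upstream, at 88143885, and that of Gata3 downstream, at 9797026.

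**Figure D4:**
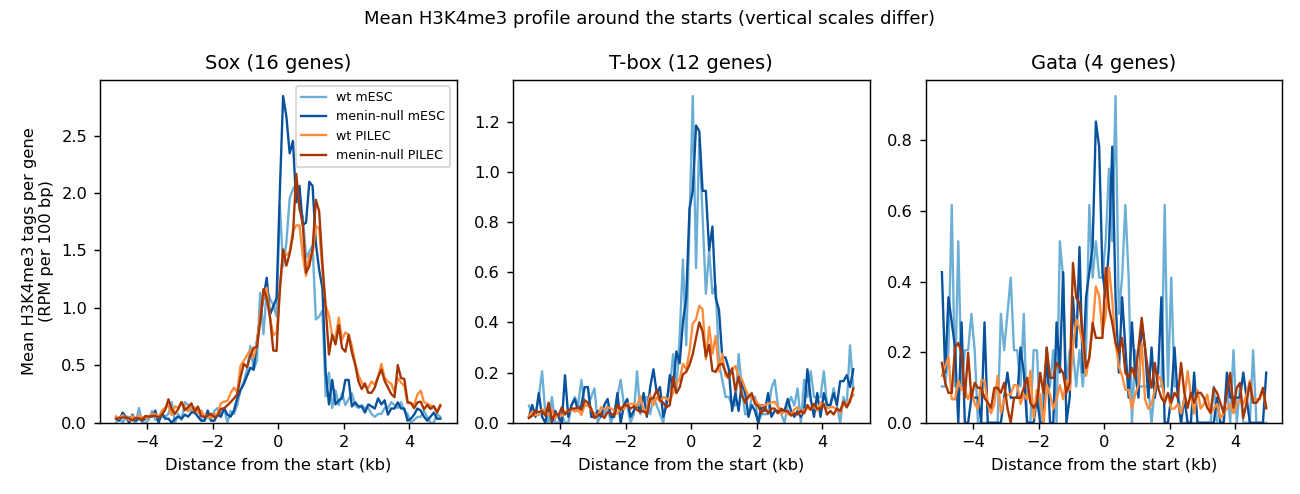
Mean H3K4me3 tags per gene (RPM per 100 bp) by distance from the start (kb, downstream to the right) for the 16 Sox, 12 T-box and 4 Gata genes, with 1 line per library and a vertical scale of its own in each panel. In the Sox panel the PILEC lines stay above the mESC lines from about 2 kb downstream on, and in the T-box panel the mESC lines peak above the PILEC lines at the start.

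**Figure D5:**
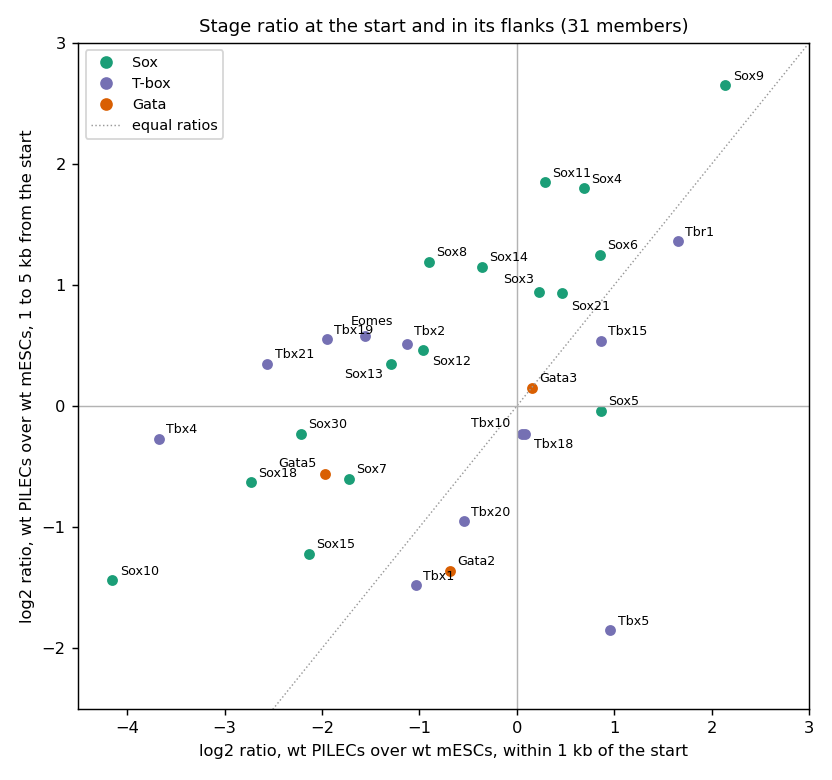
Log2 ratio of wt PILECs over wt mESCs within 1 kb of the start (horizontal) and 1 to 5 kb from it (vertical) for the 31 members compared, coloured by family, with a dotted line where both ratios are equal. Sox11 and Sox4 lie high above the line near 0 to 1 on the horizontal axis, and Sox9 lies at the top right.

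Between genotypes the flanks gave 1 called member in PILECs, and it was Tbx15. Its flanks held 135 tags in wt and 57 in menin-null PILECs, a log2 ratio of -1.16 (-1.63 to -0.70), where 0.670% of all 25374 genes compared were called lower in their flanks. In the flanks the input of Tbx15 held 68 and 79 tags, so the menin-null count of 57 was at the input's level. In all, 6 flank intervals lay below 0 there, Tbx15 included (18.8%, against 11.3% of all genes), and 7 above it (21.9%, against 5.18%), among them Sox8 at 0.87, Sox7 at 0.84 and Sox10 at 0.79. The flanks of Sox7 held 2.72 and 4.86 RPM in wt and menin-null PILECs against 4.36 and 4.14 RPM of input, and those of Sox10 2.88 and 4.98 RPM against 3.73 and 3.15 RPM. Sox11, Sox12 and Sox8 had flank intervals above 0 in menin-null mESCs, at 0.60 (0.18 to 1.03), 0.73 (0.39 to 1.09) and 1.47 (0.01 to 3.24), (9.68% of the members, against 6.06% of all genes), and that of Sox8, from 5 to 20 tags, passed 2-fold. That is 1 of 31 members called higher, against 1.66% of all genes. Both Sox8 values, 2.06 and 5.69 RPM, lay below the input, which held 7.06 and 8.01 RPM.

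Of the 32 members 10 had annotated starts more than 2 kb apart, and some of these separate promoters moved apart from the main one. Sox5, which has 4, used 2: the main one on chromosome 6 at 144730497 held 28 and 42 tags in wt and menin-null mESCs and 391 and 318 tags in the PILECs. The one at 144157972, deep within the gene, held 0, 2, 171 and 172 tags in the same order. In wt cells that inner promoter rose by a log2 ratio of at least 2.57, the lower counting limit taken from its count of 0. In menin-null cells it rose by 4.10 (2.22 to 7.15), and the main one gave 0.86 and 0.59 in wt and menin-null cells. The input at that position held 1, 1, 21 and 20 tags.

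At its most upstream promoter, on chromosome 7 at 123182258, Sox6 had 3, 3, 101 and 63 tags and stage ratios of 2.12 (0.54 to 4.43) and 2.06 (0.45 to 4.38). The main promoter of Sox6, at 123174561, gave 0.85 and 0.88. Sox9 has another annotated start at 112646042 on chromosome 11, inside the gene, which held 9, 24, 611 and 451 tags and lies in the downstream flank described above. The inner promoter of Sox5 was marked in both PILEC libraries, and the upstream one of Sox6 in wt PILECs at 5.38 RPM and not in menin-null PILECs at 3.56 RPM.

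The promoters of T-box and Gata genes moved in both directions. Tbx15 had a promoter at 99044304 on chromosome 3 with 15, 7, 80 and 63 tags, which gave -0.26 (-0.76 to 0.24) between genotypes in PILECs, where its main promoter at 99057683 gave -0.91. In mESCs that upstream promoter gave -1.63 (-3.17 to -0.25) between genotypes, from 15 to 7 tags, where the input went from 9 to 1 tags. Gata2 had an upstream promoter at 88143885 on chromosome 6 that went from 22 and 22 tags to 48 and 46, by stage ratios of -1.82 (-2.58 to -1.02) and -1.27 (-2.03 to -0.46), against -0.69 and -0.61 at the main one.

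Gata3 had 4 promoters. The most upstream, at 9811629 on chromosome 2, held 15, 17, 54 and 51 tags and fell in wt cells by a ratio of -1.10 (-1.95 to -0.17). The most downstream, at 9797026, held 4, 4, 45 and 75 tags and gave 0.82 (0.27 to 1.39) between genotypes in PILECs, next to 0.44 (0.13 to 0.74) at the main one. Between stages it gave 1.90 (0.48 to 3.81) in menin-null cells, and the promoter at 9809411, which reached 4 RPM in no library, gave 1.97 (0.35 to 4.29). The input held 7, 2, 15 and 15 tags at the first and 4, 4, 14 and 12 at the second. The most downstream of 3 Sox13 promoters, at 135283011 on chromosome 1, held 14, 6, 28 and 12 tags and was lower in menin-null than in wt cells in mESCs (-1.75, from -3.42 to -0.28) and in PILECs (-1.14, from -2.25 to -0.11), though only the wt mESCs reached 4 RPM there and the input held 10, 5, 20 and 16 tags. Tbx4 had 3 promoters, of which the main one alone reached 4 RPM, and the 3 promoters each of Tbx19 and Gata1 never did.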

How the data were processed

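Per the labels and the methods of the study, chromatin was sonicated to fragments of 250 bp on average, and 36-bp reads were aligned to mm9 and kept where they mapped uniquely with at most 2 mismatches. The authors deposited 1 line per tag with its position and an alignment score, which was not used here, and no normalization. The aligner is not given in the sources used here. Tags with more than 2 mismatches were present (1.04% to 1.81%) and were kept, like duplicates.

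Each tag was moved 125 bp to the middle of its fragment, counted within 1 kb of a start and divided by the library's total to give RPM. Starts came from the GENCODE vM1 annotation of mm9 (26225 genes, 75447 starts). Sox4 has 2 identifiers there, of which the longer gene was used. Ratios carry exact conditional binomial (Clopper-Pearson) intervals of 95%, for counting error only. A count of 0 was set to 3 tags in the ratio and left as it was in the interval. No p-value was computed, since each group had 1 library. Python 3.11.15, numpy 2.4.6, scipy 1.17.1 and matplotlib 3.10.9 were used, and the ratio was tested on simulated data.

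The members and lists were chosen with earlier results of these data known. Genes described in full were, by rule, those called in a comparison (up to 8 each way), the 4 highest and 4 lowest in wt PILECs and those with separate promoters of which at least 1 was marked. Other members are given for completeness. Expression arrays were not used here. Promoter sequences are printed for 3 members and not reported here for the others.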

Additional observations from a re-analysis of the deposited data

Results flagged for a closer look

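For 2 members the genotype ratio had its counting interval above 0 in mESCs and below 0 in PILECs. Sox12 gave a log2 ratio of menin-null over wt of 0.44 (0.19 to 0.70) in mESCs and -0.17 (-0.33 to -0.02) in PILECs. Eomes gave 0.49 (0.05 to 0.95) in mESCs and -0.44 (-0.79 to -0.09) in PILECs. Each rests on 1 library per condition, and the difference between the stages was not tested over replicates. Of the 28 members compared in both stages these were 2, and of all 16163 genes compared in both 1148 (7.10%) had opposite intervals, where the medians of all genes were 0.22 and -0.07. Scaled by tags near starts, the mESC intervals took in 0 for both, from -0.05 to 0.46 for Sox12 and from -0.19 to 0.71 for Eomes, and 1 other member, Sox14, had opposite intervals (1.60% of all genes). With libraries thinned to the shallowest 0 members had them (2.15% of all genes). After division by the input Sox4 and Eomes had them (14.3% of all genes). Sox12 also lost the pattern with tags left at their 5′ ends, within 2000 bp, with at most 2 mismatches and after division by the input, and Eomes at its most upstream start and within 500 bp.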

How the results depend on the processing

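No paired analysis was possible because each condition had 1 library. Counts of members called lower or higher, and of marked members, that are not given here stayed within 1.5 times the value reported under every alternative run. Counts by the interval alone moved more: those below and above 0 ran from 0 to 3 and 1 to 5 between genotypes in mESCs, from 5 to 9 and 3 to 7 in PILECs, from 10 to 17 and 3 to 12 between stages in wt cells, and from 14 to 17 and 3 to 9 in menin-null cells. The share of all genes with such intervals under each alternative is not given here, so these ranges have no background beside them. The medians of the members ran from -0.01 to 0.31 between genotypes in mESCs, from -0.11 to 0.02 between genotypes in PILECs, from -0.97 to 0.19 between stages in wt cells and from -1.26 to 0.10 in menin-null cells. Those of all genes ran from -0.02 to 0.26, from -0.10 to 0.04, from -0.28 to 0.39 and from -0.71 to 0.17 in the same order. For the counts of called members that follow, the share of all genes called under the same setting stands in brackets. In mESCs the count of members lower in menin-null cells, 1 as reported, was 0 with duplicates counted once (0.684%), 2 when scaled by tags near starts (2.13%), 2 at the most upstream start (0.910%), 2 with tags within 500 bp (1.03%) and 0 after division by the input (2.06%), where the count of higher members was 1 (6.63%). In PILECs the count of lower members, 1 as reported, was 0 with duplicates counted once (1.28%), 0 when scaled by tags near starts (0.973%), 0 with at most 2 mismatches (1.35%), 2 with tags within 500 bp (2.11%), 2 within 2000 bp (1.03%), 2 at a 1.5-fold limit (3.79%), 2 with input RPM subtracted (1.68%) and 3 of 25 when thinned to the shallowest library (1.77%), Sox3, Sox6 and Tbx2. The higher members, 0 as reported, were 3 of 25 when thinned (0.370%), Sox14, Gata2 and Tbx21, and 1 at a 1.5-fold limit (1.81%). At full depth none of the members named here as called after thinning passed 2-fold. Gata2 gave -0.07 (-0.47 to 0.34) there, Tbx21 0.37 (-0.11 to 0.86) and Sox14 0.64 (0.22 to 1.05), and Sox3, Sox6 and Tbx2 gave -0.36, -0.50 and -0.46.

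Between stages the 2 members higher in wt PILECs became 4 with tags within 2000 bp (5.20%), 7 after division by the input (18.9%) and 6 at a 1.5-fold limit (12.2%). The 2 higher in menin-null PILECs became 5 when scaled by tags near starts (7.46%), 1 with tags within 500 bp (4.43%), 4 within 2000 bp (4.14%), 5 after division by the input (10.3%) and 6 at a 1.5-fold limit (7.67%). Division by the input turned the medians of the members to 0.19 in wt and 0.10 in menin-null cells. Tbr1 turned to -0.53 in wt cells at its most upstream start, and Tbx1 turned to 0.10 in menin-null cells after division by the input. That division also reversed the sign of the ratios of Sox8 in both genotypes and of Sox12 in wt cells. Of the marked members of menin-null PILECs, 11 were left at a limit of 8 RPM. The share of all genes at that limit is not given here, so this count has no background beside it. The cause of these moves was not tested. Low depth limits the ratios that use the mESC libraries: counts of 4 to 31 tags stood behind Tbr1, Sox14, Sox6, Tbx15, Tbx4 and Sox9 in wt mESCs.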
